A study of Mus musculus with 12 samples.

Results

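The insulin-like growth factor (IGF) axis was examined in C2C12 myotubes given 4% STEM or 4% horse serum for 24 h. Its 10 members were taken by symbol: the ligand genes Igf1 and Igf2, the receptor genes Igf1r and Igf2r, and the binding protein genes Igfbp2, Igfbp3, Igfbp4, Igfbp5, Igfbp6 and Igfbp7. All 10 were found among the 55487 genes listed and all 10 passed the filter on low counts, which left 14175 genes for testing. C2C12 is a mouse myoblast line whose cells fuse into multinucleated myotubes once serum is lowered. Every culture was differentiated in 2% horse serum before the medium was changed, so both groups share that history, and each group has 6 libraries (horse serum 1 to 6, STEM 7 to 12). STEM is the cell-free product secreted by partially differentiated human embryonic stem cells. It stood in place of horse serum, so what STEM adds and what the missing serum takes away cannot be told apart. The labels do not say whether the libraries came from separate cultures, so p-values measure the spread between these libraries only.

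IGF1 and IGF2 are secreted peptides that act on muscle cells mainly through the IGF1 receptor, a tyrosine kinase that signals through insulin receptor substrates to the PI3K and AKT pathway and through RAS to the MAP kinases. The IGF2 receptor, which is also the receptor for mannose 6-phosphate, takes IGF2 up and delivers it to lysosomes. The binding proteins hold the ligands outside the cell, and can withhold them from the receptor or carry them to it. IGFBP2 to IGFBP6 bind IGFs tightly, whereas IGFBP7 binds them weakly. In muscle, IGF signalling is known for its part in both differentiation and growth of the fibres. Serum also carries IGFs and binding proteins, and insulin, IGFBP2 and IGFBP6 are named among the proteins of STEM. Only transcripts were measured here, so no value below is a protein level.

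Libraries held between 13285472 and 24536264 counts. Values are given as CPM, the counts of a gene per 1000000 counts of its library after TMM normalization. Genes were called with edgeR's quasi-likelihood test where the p-value adjusted over all 14175 genes (Benjamini-Hochberg) was at most 0.05. Of all tested genes 36.4% were called, so a call by itself is common in this comparison. Horse serum library 6 stood apart on principal component 2 of log2 CPM (19.8% of the variance). It scored -53.3 there, where the other 11 libraries lay between 0.22 and 11.8. On component 1 (44.2%) it scored 11.2, not far under the lowest STEM score of 15.5. No other horse serum library scored above -24.6 on that component. On the larger component, library 6 was therefore nearer to STEM than to its own group. Its 15 myotube markers summed to 7330 CPM, against 17100 to 18700 CPM in the other horse serum libraries and 13500 to 17300 CPM under STEM. In bulk RNA, fewer myotubes and less RNA of these genes per myotube cannot be told apart. The muscle label itself was borne out by Acta1, Mylpf and the other myotube markers, all 15 of which passed the filter on low counts. Markers of other cell types were partly present. At most 3 counts in every library were found for 5 of 7 adipocyte markers (Adipoq and Plin1 among them), 3 of 7 macrophage markers (Adgre1, Ptprc and Lyz2), 4 of 6 endothelial markers (Pecam1 and Kdr among them) and 2 of 8 fibroblast markers (Lum and Thy1). The other 6 fibroblast markers were tested, and the collagen genes Col3a1 and Col1a2 reached means of 5996 and 1559 CPM in horse serum. Pparg (12.4 CPM) and Cd68 (3.60 CPM) were also tested.

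Of the 10 members 7 were called (70.0%, against 36.4% of all tested genes), 5 of them higher under STEM and 2 lower. Their median difference was 0.23 in log2 units, where that of all tested genes was 0.01. The binding proteins held the largest changes, with 4 of 6 higher and 0 lower. Both ligands were called, in opposite directions, and of the receptors only Igf2r was. STEM and horse serum ranges were apart for 5 members, against 17.2% of all tested genes. The 5 were Igf2r, Igfbp2, Igfbp3, Igfbp4 and Igfbp5.

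**Figure D1:**
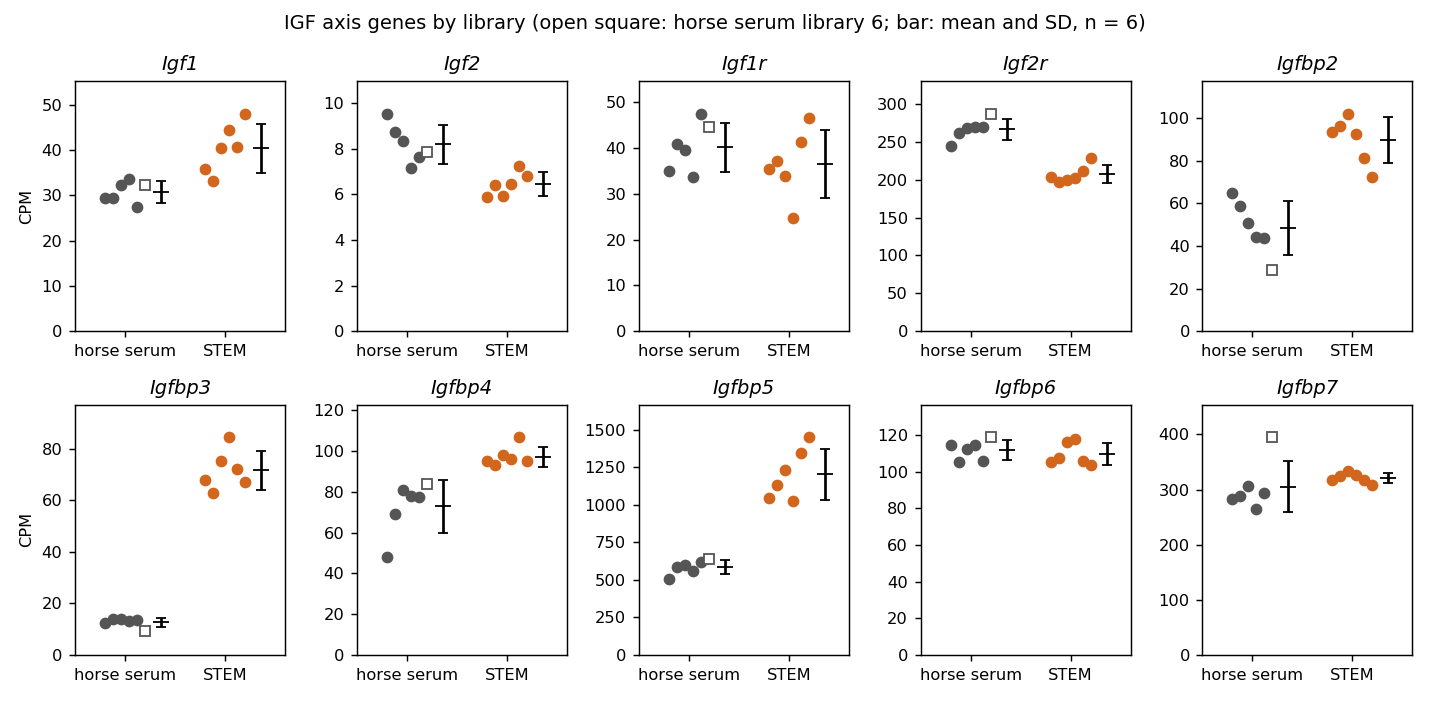
CPM of the 10 IGF axis genes in each library, on axes that start at 0. Each filled point is a library, the open square is horse serum library 6, and the bar gives mean and SD (n = 6). The STEM points lie above every horse serum point for Igfbp2, Igfbp3, Igfbp4 and Igfbp5 and below every one for Igf2r.

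The ligand gene Igf1 (ENSMUSG00000020053, GRCm38 chromosome 10, 87858265 to 87937042, plus strand) was higher with STEM. Its level ranged from 27.4 to 33.6 CPM in horse serum (median 30.9) and from 33.2 to 48.0 CPM under STEM (median 40.5). Only the lowest STEM library, number 8, fell within the horse serum range, and the other 5 lay above it. STEM minus horse serum came to 0.39 on the log2 scale (standard error, SE, 0.085, edgeR adjusted p = 0.00233), a 1.31-fold difference, and the exact two-sided permutation test of log2 CPM gave p = 0.00433. Here the smallest p that 6 libraries against 6 allow is 0.00216. STEM libraries 7 and 8 were the lowest of their group at 35.7 and 33.2 CPM, while the remaining 4 reached 40.4 CPM or more.

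Igf2 (ENSMUSG00000048583, chromosome 7, 142650766 to 142666816, minus strand) encodes the fetal growth factor that differentiating myoblasts also make, and it was lower with STEM on few counts. It had 111 to 153 counts per library with horse serum and 90 to 144 with STEM, or 7.14 to 9.53 CPM (median 8.08) and 5.87 to 7.22 CPM (median 6.44). Of the STEM libraries 5 lay below every horse serum library, and library 11 fell inside the horse serum range. STEM minus horse serum came to -0.35 on the log2 scale (SE 0.092, edgeR adjusted p = 0.00881, exact permutation p = 0.00433).
The level of Igf2 has a limit set by the annotation. In GENCODE M21, 3596 of the 5723 exonic bases of Igf2 also belong to Gm49394, a gene on the same strand that reads through Igf2, and these include 546 of its 678 coding bases. Another 98 bases lie in exons of Igf2os on the opposite strand, which leaves 2029 bases in no other gene. How reads over shared bases were assigned is not given in the sources used here. Gm49394 itself had 1 to 10 counts per library. Igf2 reads that fell on the shared bases may be missing from the table, so the low level of Igf2 cannot be taken as the level of its mRNA, and the call rests on the reads that were assigned.

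The receptor genes differed from each other. Igf1r (ENSMUSG00000005533, chromosome 7, 67952827 to 68233668), which encodes the signalling receptor, ranged from 33.7 to 47.5 CPM in horse serum (median 40.3) and from 24.8 to 46.6 CPM under STEM (median 36.3). Only STEM library 10, at 24.8 CPM, lay below every horse serum library, and the ranges otherwise overlapped. The log2 fold change of -0.14 did not pass the test (adjusted p = 0.419 in edgeR, exact permutation p = 0.34), and its 95% interval ran from -0.42 to 0.13. Differences anywhere in that interval could not be resolved at this spread. Without STEM library 10 the log2 fold change of Igf1r was -0.05.
Igf2r (ENSMUSG00000023830, chromosome 17, 12682406 to 12769664), the gene of the receptor that clears IGF2, was lower in every STEM library. It ranged from 245 to 287 CPM in horse serum (median 268) and from 197 to 229 CPM under STEM (median 203), and the groups did not overlap. STEM minus horse serum came to -0.36 on the log2 scale (SE 0.049, edgeR adjusted p = 5.14e-05, exact permutation p = 0.00216). The insulin receptor gene Insr, whose product can pair with the IGF1 receptor, stood at 52.3 ± 3.96 CPM in horse serum and 46.8 ± 4.71 CPM under STEM (SD, n = 6) and was not called (adjusted p = 0.0886 in edgeR).

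The binding protein genes carried the largest differences, and the sequences upstream of the 3 that rose most are shown with that of Igfbp6, which was not called, so that their make-up can be compared. Each runs from 250 to 20 bases before a RefSeq start of the gene on its own strand (GRCm38.p6), and capitals mark the letters of a TATA form (TATAAA or TATATA or TATTTA), of a GC box (GGGCGG) or of an E-box (CAGCTG), on either strand.
Igfbp3 (chr11:7213943-7214173, minus strand): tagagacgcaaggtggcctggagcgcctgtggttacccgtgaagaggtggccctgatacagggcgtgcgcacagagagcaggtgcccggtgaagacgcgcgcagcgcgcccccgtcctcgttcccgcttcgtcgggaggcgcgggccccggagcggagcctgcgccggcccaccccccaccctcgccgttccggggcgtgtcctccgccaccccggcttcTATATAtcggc
Igfbp5 (chr1:72874885-72875115, minus strand): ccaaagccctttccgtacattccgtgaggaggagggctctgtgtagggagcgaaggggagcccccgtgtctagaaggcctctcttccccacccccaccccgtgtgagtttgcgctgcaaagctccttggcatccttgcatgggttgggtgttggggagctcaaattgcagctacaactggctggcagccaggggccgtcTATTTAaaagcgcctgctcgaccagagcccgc
Igfbp2 (chr1:72824230-72824460, plus strand): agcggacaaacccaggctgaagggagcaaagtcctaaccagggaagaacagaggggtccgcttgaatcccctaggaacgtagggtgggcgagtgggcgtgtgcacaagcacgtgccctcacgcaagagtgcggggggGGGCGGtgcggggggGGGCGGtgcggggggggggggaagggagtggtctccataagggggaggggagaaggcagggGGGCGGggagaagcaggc
Igfbp6 (chr15:102143936-102144166, plus strand): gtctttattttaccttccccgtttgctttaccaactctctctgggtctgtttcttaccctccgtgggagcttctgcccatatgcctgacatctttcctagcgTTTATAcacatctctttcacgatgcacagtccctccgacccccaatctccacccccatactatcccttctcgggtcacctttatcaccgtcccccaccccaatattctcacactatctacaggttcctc
The printed windows of the 3 genes that rose most did not share a motif of this set. Igfbp3 held TATATA with its first base 30 bases before the start, and Igfbp5 held TATTTA at 51 bases. Igfbp2 held 3 copies of GGGCGG, the letters of a GC box, and no TATA form. A further RefSeq start of Igfbp2, whose window is not printed (chr1:72825137-72825367), had 0 copies, no TATA form and a GC content of 56.3%. Igfbp6 held TATAAA on the other strand, far from the start at 148 bases. Igfbp4, not printed, held TATAAA at 28 bases. Of 32851 such windows over all genes, TATATA was found in 5.04%, TATTTA in 12.1%, TATAAA in 11.8%, GGGCGG in 30.0% and CAGCTG, an E-box form, in 11.9%. TATATA and TATTTA were added after the windows had been read. GC content was 71.9% for Igfbp3, 60.6% for Igfbp5, 68.4% for the printed window of Igfbp2 and 50.2% for Igfbp6, with a median of 51.9% over all windows.

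Igfbp3 (ENSMUSG00000020427, chromosome 11, 7206086 to 7213923) showed the largest change of the members. It encodes the main carrier of IGFs in blood, which tissues also make. Its level was 9.38 to 14.0 CPM in horse serum (median 13.2) and 62.7 to 84.3 CPM under STEM (median 70.0), so the lowest STEM library was far above the highest horse serum library. The log2 fold change was 2.50 (SE 0.097, edgeR adjusted p = 3.81e-10). In horse serum, 5 libraries lay between 12.5 and 14.0 CPM and library 6 below them.
Igfbp5 (ENSMUSG00000026185, chromosome 1, 72857932 to 72874884), the binding protein gene best known from differentiating muscle cells, was the one with the most counts. Horse serum libraries held 508 to 639 CPM (median 590) and STEM libraries 1025 to 1448 CPM (median 1179). The groups lay far apart, and the STEM group itself was spread, with libraries 7 and 10 low and libraries 11 and 12 high. STEM minus horse serum came to 1.04 on the log2 scale (SE 0.086, edgeR adjusted p = 6.03e-07), or 2.06-fold.
Igfbp2 (ENSMUSG00000039323, chromosome 1, 72824503 to 72852474) lies end to end with Igfbp5, with 5457 bases between them. It ranged from 28.9 to 64.8 CPM in horse serum (median 47.4) and from 72.3 to 102 CPM under STEM (median 92.8). The groups did not overlap, although the horse serum libraries themselves were spread, with library 6 the lowest and library 1 the highest. The log2 fold change was 0.89 (95% interval 0.54 to 1.24, adjusted p = 0.000926 in edgeR).

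A smaller rise was seen for Igfbp4 (ENSMUSG00000017493, chromosome 11, 99041244 to 99054392), whose product inhibits IGF action and is cut by the protease PAPP-A. Values ran from 48.1 to 83.7 CPM in horse serum (median 77.6) and from 93.1 to 107 CPM under STEM (median 95.5). The groups did not overlap, and horse serum library 1 lay well below the rest of its group. The log2 fold change was 0.41 (95% interval 0.19 to 0.64, adjusted p = 0.0067 in edgeR). Without horse serum library 1 it was smaller, at 0.32 (adjusted p = 0.000586 in edgeR).
Igfbp6 and Igfbp7 were not called. Igfbp6 (ENSMUSG00000023046, chromosome 15, 102144362 to 102149511), which prefers IGF2 over IGF1, stood at 106 to 119 CPM in horse serum and 104 to 118 CPM under STEM. Its log2 fold change was -0.03 with a 95% interval from -0.13 to 0.07 (adjusted p = 0.619 in edgeR), so the interval holds no change as large as those of the members called. Igfbp7 (ENSMUSG00000036256, chromosome 5, 77349240 to 77408041), the weak IGF binder, stood at 264 to 395 CPM in horse serum (median 291) and 308 to 334 CPM under STEM (median 321). Horse serum library 6 gave the 395 CPM, and the other 5 ended at 307 CPM, just under the lowest STEM library. With all libraries the log2 fold change was 0.07 (adjusted p = 0.479 in edgeR), and without library 6 it was 0.16 (standard error 0.041, adjusted p = 0.00265). The call for Igfbp7 therefore turned on that library.

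**Figure D2:**
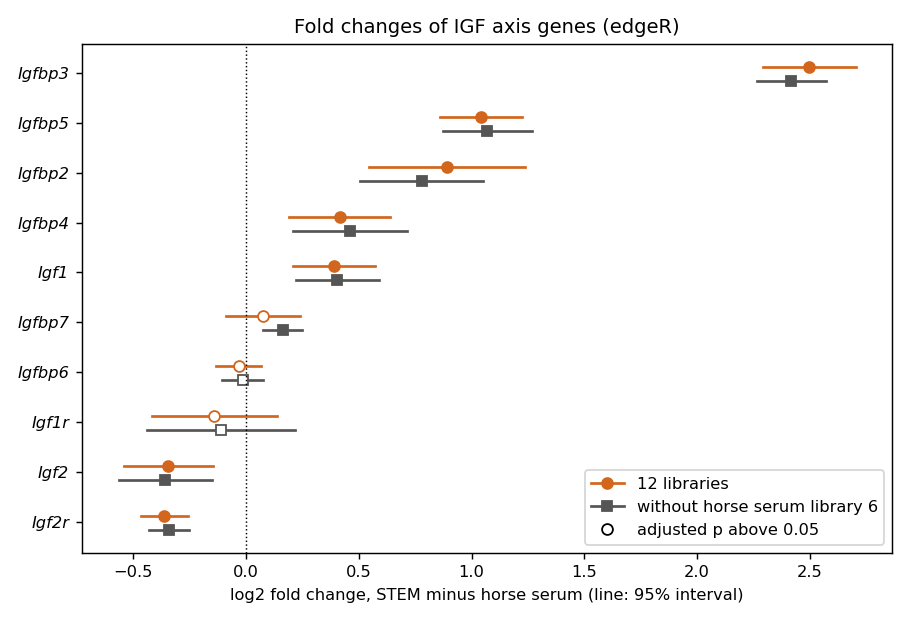
Log2 fold change of each IGF axis gene, STEM minus horse serum, with its 95% interval, from all 12 libraries (circles) and without horse serum library 6 (squares), where filled symbols mark an adjusted p of 0.05 or less in edgeR. Igfbp3 stands alone at 2.50, Igfbp5 and Igfbp2 lie at 1.04 and 0.89, and Igfbp7 is the member whose symbol fills when library 6 is left out.

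Library 6 was the highest or lowest of its group for several members. How often that holds over all tested genes was not counted. Within the horse serum group it was above the other 5 libraries for Igf2r, Igfbp4, Igfbp5, Igfbp6 and Igfbp7 and below them for Igfbp2 and Igfbp3. The largest of these gaps were -0.84 for Igfbp2, -0.51 for Igfbp3 and 0.46 for Igfbp7, in log2 CPM against the mean of the other 5. The rest were smaller, from 0.10 for Igfbp6 to 0.27 for Igfbp4. Without library 6, the log2 fold change was 2.42 for Igfbp3, 0.78 for Igfbp2, 1.07 for Igfbp5, 0.46 for Igfbp4, 0.40 for Igf1, -0.36 for Igf2 and -0.34 for Igf2r, and all 7 stayed called. Of all genes tested without it, 50.8% were called. The part of the lower myotube markers of library 6 in these gaps was not tested.

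Levels of different genes can be compared only per length, and CPM was divided by the kilobases of merged exons for that purpose. On this scale Igfbp7 was the highest member with horse serum, at 252 ± 38.1 CPM per kb (SD, n = 6). Igfbp6 (101 ± 4.79) and Igfbp5 (97.3 ± 7.73) followed, and their libraries overlapped. Next came Igf2r (28.6 ± 1.48), Igfbp2 (26.2 ± 6.84) and Igfbp4 (16.5 ± 2.96), each overlapping its neighbour in this order. Igfbp3 (4.06 ± 0.55) overlapped Igf1 (3.11 ± 0.24), and Igf1 overlapped Igf1r (2.40 ± 0.32).
With STEM the order changed at several places. Igfbp7 was still first at 266 ± 7.37 CPM per kb, and Igfbp5 was now second at 200 ± 28.2, clear of Igfbp6 at 98.5 ± 5.34. Igfbp2 followed at 48.5 ± 5.89. Igfbp3 reached 22.9 ± 2.42, within the spread of Igf2r (22.3) and close to Igfbp4 (22.0 ± 1.11). Igf1 (4.08 ± 0.55) and Igf1r (2.18 ± 0.44) stayed far below, and their libraries no longer overlapped. Igf2 was last in both groups, at 1.43 and 1.13 CPM per kb over all its exons, or 4.04 and 3.18 over the bases it shares with no other gene, so its place in the order is not settled.

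Summed over the 6 binding protein genes, this scale gave 461 to 577 CPM per kb with horse serum and 625 to 687 with STEM, and the highest horse serum value was that of library 6 (461 to 504 without it). The make-up of the sum shifted. Igfbp7 went from 50.5% ± 3.12 to 40.4% ± 1.64 of the sum (SD, n = 6), although its own CPM was no lower, and Igfbp5 went from 19.6% ± 1.23 to 30.4% ± 3.55. The share of Igfbp3 was 0.83% ± 0.15 with horse serum and 3.48% ± 0.38 with STEM. Igfbp6 went from 20.3% ± 1.49 to 15.0% ± 0.90. Igfbp4 kept nearly the same share in both groups, 3.32% ± 0.54 and 3.35% ± 0.15. No test was run on the sum or its shares.

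**Figure D3:**
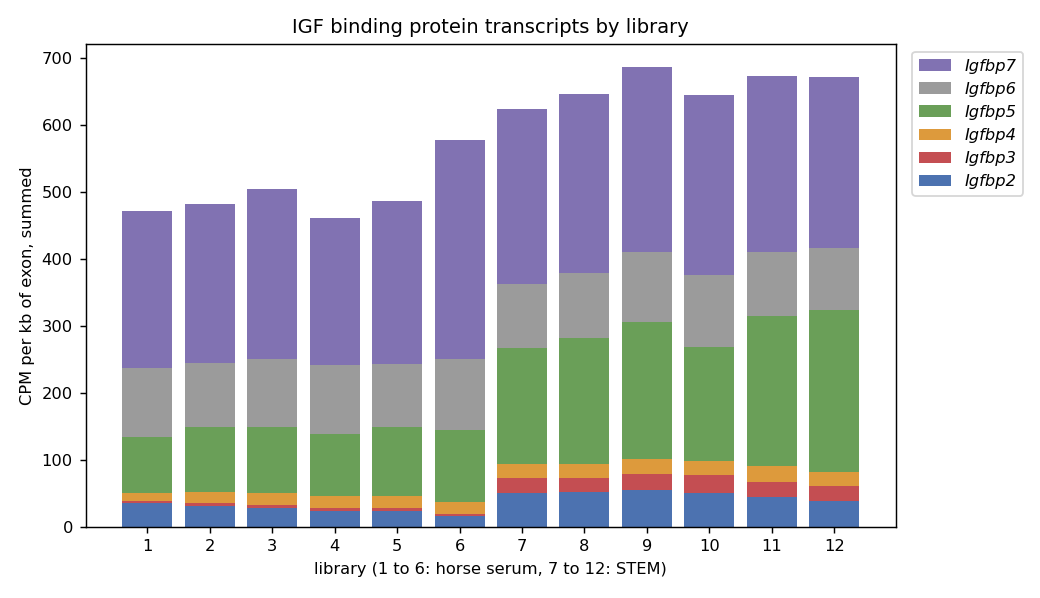
CPM per kb of exon of the 6 IGF binding protein genes, stacked, for each library (1 to 6 horse serum, 7 to 12 STEM). The totals lie between 461 and 577 with horse serum and between 625 and 687 with STEM, and the green band of Igfbp5 is wider in every STEM library.

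Other genes of the pathway were read from lists of 82 genes, of which 67 were tested and 39 called (58.2%, against 36.4% of all tested genes), 21 higher and 18 lower with STEM. Most other ligands and carriers were not measurable. Ins1 and Igfbp1, the latter lying 3539 bases from Igfbp3, had 0 counts in every library, and Insrr and Igfbpl1 had at most 1. Ins2 had at most 6 counts in a library, and Igfals, the gene of the subunit that stabilises IGF complexes in blood, at most 4. These genes were not detectable at this depth or lay near that limit.

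Of 8 tested genes for proteases that cut binding proteins and for the inhibitors of such proteases, 5 were called, 3 higher and 2 lower. The share to read against is the 36.4% of all tested genes that were called. Stc1, whose product stanniocalcin 1 inhibits PAPP-A, had the largest change. It stood at 0.77 to 3.77 CPM in horse serum and 5.71 CPM or more under STEM, which makes 2.02 on the log2 scale (SE 0.29, edgeR adjusted p = 0.00012). The horse serum values of Stc1 rest on 15 to 55 counts per library. Library 6 held the 0.77 CPM, and the log2 fold change was 1.83 without it. Adam12, a metalloprotease gene of fusing myoblasts, went from 35.1 ± 12.5 to 58.4 ± 6.76 CPM (SD, n = 6), and library 6 held the highest horse serum value at 60.4 CPM (log2 fold change 0.72, and 0.95 without that library). Pappa2 was lower (log2 fold change -0.88, adjusted p = 0.00681 in edgeR) on at most 19 counts in a library. The gene of PAPP-A itself, Pappa, was not called (log2 fold change 0.47, adjusted p = 0.106), at 2.87 CPM in library 6 against a mean of 7.81 CPM over the group, and it passed without that library at 0.29 (adjusted p = 0.0207). Htra1 was higher by 0.25 on the log2 scale.

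Of 7 listed neighbours of Igf2 and Igf2r only 2 could be tested. Both were called lower, where 17.4% of all tested genes were. H19, an imprinted non-coding RNA that lies 72622 bases from Igf2 and is expressed in muscle together with it, stood at 5124 to 16690 CPM in horse serum and 6682 to 9120 CPM under STEM. Library 6 held the 5124 CPM, below every STEM library, and the other horse serum libraries held 12900 CPM or more. The log2 fold change of H19 was -0.66 (adjusted p = 0.0314 in edgeR) and -0.82 without library 6 (adjusted p = 2.66e-06). Its call was lost under 10 of 20 alternatives, among them limma-voom and leaving out any other horse serum library, with adjusted p between 0.0505 and 0.0944. Airn, the RNA that runs antisense to Igf2r, went from 4.47 ± 0.93 to 2.97 ± 0.71 CPM (SD, n = 6, log2 fold change -0.58, adjusted p = 0.0198 in edgeR). Whether the counting used the strand is not given in the sources used here. Th, Slc22a2, Slc22a3 and Mas1 had at most 1 count in a library, and Igf2os, at most 17 counts, was not tested. Of the IGF2 mRNA binding protein genes, Igf2bp2 was tested and not called (log2 fold change -0.31, adjusted p = 0.0642 in edgeR), but it passed without library 6 at -0.38 (adjusted p = 0.00564). Igf2bp1 and Igf2bp3 had at most 5 counts.

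For each of the signalling lists the share to read against is again the 36.4% of all tested genes. Among adaptors and feedback genes 7 of 14 were called, 3 higher and 4 lower. Irs2, the gene of an adaptor that insulin and IGF1 receptors phosphorylate, stood at 14.1 to 24.2 CPM in horse serum and 11.1 to 13.9 CPM under STEM, without overlap (-0.69 in log2 fold change, SE 0.12, edgeR adjusted p = 0.000347). Gab1, a docking protein gene, was also lower (-0.41, adjusted p = 0.000434). Ptpn11 and Inppl1, which encode the phosphatases SHP2 and SHIP2, were higher by 0.23 and 0.29 on the log2 scale.
The PI3K, AKT and mTOR arm had 20 of 29 genes called, 13 higher and 7 lower, and its median log2 fold change was 0.04. The lowest p-values pointed both ways. The regulatory subunit gene Pik3r1 fell from 81.3 ± 2.87 to 64.4 ± 2.16 CPM, while Pik3r2, which encodes another regulatory subunit, rose by 0.32 on the log2 scale from 82.2 ± 2.22 CPM (SD, n = 6, edgeR adjusted p = 2.02e-05 and 3.37e-05). Rictor, the gene of an mTOR complex 2 subunit, was lower, with a log2 fold change of -0.31. For the RAS and MAP kinase arm 5 of 12 genes were called, 2 higher and 3 lower, a share close to the 36.4% of all tested genes. Hras rose from 43.5 ± 1.35 to 56.5 ± 2.81 CPM and Mapk3, the gene of ERK1, fell from 63.4 ± 3.59 to 50.0 ± 2.45 CPM. Map2k2 was higher by 0.19, and Dusp6, which encodes a phosphatase of ERK, had a log2 fold change of -0.42.

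**Figure D4:**
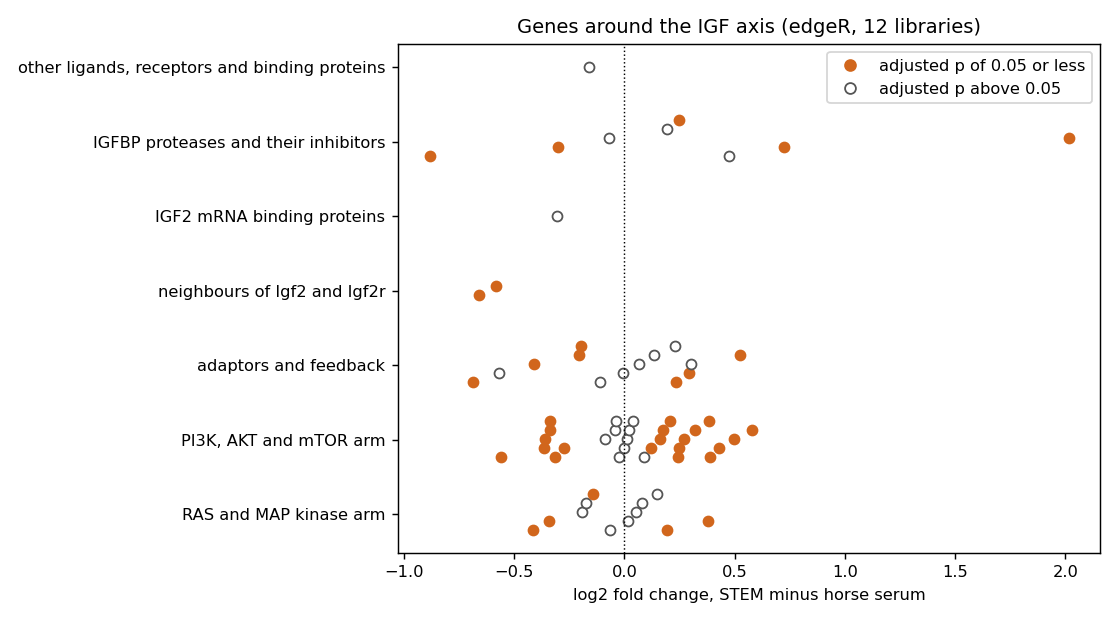
Log2 fold change (STEM minus horse serum) of the 67 tested genes around the IGF axis, 1 point a gene, by list, with filled points for an adjusted p of 0.05 or less in edgeR. Stc1 stands highest at 2.02.

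Markers of other cell states and types moved in the same comparison, in which 36.4% of all tested genes were called. Of 10 proliferation markers 9 were lower with STEM, with a summed level of 789 to 1300 CPM in horse serum and 588 to 716 CPM under STEM. Library 6 gave the 1300 CPM, and the other horse serum libraries held 789 to 1160 CPM. Of 10 markers of unfused myoblasts and reserve cells 6 were lower and 2 higher, with sums of 736 to 1010 CPM and 633 to 739 CPM. Here the 736 CPM was that of library 6, and the other horse serum libraries held 889 to 1010 CPM. Of 15 myotube markers 3 were higher and 1 lower, a smaller share than among all tested genes. Without library 6 these became 3 and 8, where 50.8% of all genes were called. Of 6 tested fibroblast markers 2 were higher, Col1a1 (0.71 in log2 fold change, edgeR adjusted p = 0.0161) and Dpt (1.10, adjusted p = 0.000503), and 0 were lower. The fibroblast list summed to 7340 to 8580 CPM in horse serum and 8150 to 9440 CPM under STEM, and 4 of the 6 were higher without library 6. Pparg, the tested adipocyte marker, was lower (-0.84, edgeR adjusted p = 2.13e-05), with a list sum of 9.89 to 15.5 CPM and 6.26 to 7.60 CPM. The 9.89 CPM was again library 6, with 11.3 CPM or more in the other horse serum libraries. Cd68, the only macrophage marker tested with all libraries, was not called (0.12, edgeR adjusted p = 0.61). The macrophage list summed to 3.13 to 5.55 CPM in horse serum (4.11 to 5.55 CPM without library 6) and 4.71 to 6.0 CPM under STEM. Without library 6, 2 macrophage markers were tested and 1 was called higher, while Cd68 stayed uncalled (edgeR adjusted p = 0.954). That call rests on few counts, since no macrophage marker other than Cd68 had more than 30 counts in a library. Of the endothelial markers 0 passed the filter. The part of these shifts in the values of the IGF axis was not tested.

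The genes whose deviations from the group means were most like those of a member were read over the 11 libraries without library 6, as a description with no test. For Igfbp5 they were 1700017B05Rik and Ralgapa1 (Pearson r = 0.978 and 0.976), and for Igf1r they were March6 and Cspg4 (0.978 for the first). Igfbp2 varied most like Mthfd1l and Tsc22d3 (0.946 and 0.942), Igfbp4 like Ctrb1 and Junb (0.962 and 0.951), Igf2r like Slc6a6 and Tor1aip1 (0.948 and 0.944), and Igf1 like Pitx3 and Stat5a (0.932 and 0.920). For Igfbp3 the closest were Acta2 and Crk (0.959 and 0.958), a likeness that was gone with library 6 included (-0.12 and -0.31). Igfbp6 (Rpl36al and Enox2), Igfbp7 (Sh3tc1 and Pik3c2a) and Igf2 (Copg1 and Arhgdia) had values between 0.918 and 0.951. With library 6 included, r also dropped to 0.32 and 0.28 for both genes of Igfbp6, to 0.31 and 0.56 for those of Igf2, to 0.37 and 0.76 for those of Igfbp7 and to 0.53 for Igf1 with Pitx3. For Igf1 with Stat5a and for the genes named with Igf1r, Igf2r, Igfbp2, Igfbp4 and Igfbp5 it lay between 0.787 and 0.959. Each is among the highest of all correlations with tested genes, over few libraries that share depth and normalization.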

How the data were processed

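RNA sequencing of 12 libraries of C2C12 myotubes was analysed. The authors used a strand-marking kit with ribosomal RNA removal, and the deposited values are raw read counts per Ensembl gene, with no normalization. The submitters' processing notes name STAR 2.7.3a, featureCounts 1.6.3, DESeq2 1.26.0 and GRCm38, and the strand setting and annotation release are not given in the sources used here. Groups came from the sample titles. Symbols, positions and merged exon lengths came from GENCODE M21, which held 55227 of 55487 listed genes.

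Counts were tested with edgeR 4.0.16 in R 4.3.3 (filterByExpr, TMM, glmQLFit with robust estimation, glmQLFTest). All 12 libraries entered, and adjusted p-values cover all 14175 tested genes. A prior count of 2 went into log2 CPM. Permutation tests were exact and two-sided. Alternatives were DESeq2 1.42.0, limma-voom (limma 3.58.1), other scalings and filters, and each library left out. The named genes are the 10 members, at most 4 called genes with the lowest p per pathway list, every gene of 3 short lists, markers, and the 2 genes most like each member. A gene that this rule names is not reported here. Members and lists were chosen with earlier results of these data known. Pappa, Gm49394, Col1a1, Dpt and the markers at or below 3 counts fall outside this rule and were named after their values were seen. Upstream sequences are from RefSeq (GRCm38.p6). All 10 members had at least 1 of 14 windows.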

Additional observations from a re-analysis of the deposited data

Results flagged for a closer look

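In groups of 6 libraries, the highest or lowest value was flagged where its gap to the nearest library took up more of the group's range in log2 CPM than Dixon's 95% critical value allows. Of 20 groups checked (10 members in 2 groups) 3 were flagged, and chance flags about 1 in 20. Igfbp3 in horse serum library 6 stood at 9.38 CPM, below 12.5 to 14.0 CPM in the other 5. Igfbp7 in the same library stood at 395 CPM, above 264 to 307 CPM. Igfbp4 in horse serum library 1 stood at 48.1 CPM, below 69.3 to 83.7 CPM.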

How the results depend on the processing

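No paired analysis was run because the labels name no pairs of libraries across the groups. The library numbers (1 to 6 and 7 to 12) only run on from one group to the other. Over 20 alternatives, 2 of them added after the data were seen, the 7 members called kept their direction and stayed called, and Igf1r and Igfbp6 stayed uncalled. Igfbp7 was the exception. It passed without horse serum replicate 6 (log2 fold change 0.16 in edgeR, and 0.16 with DESeq2 and limma-voom when that library was left out as well, adjusted p = 0.000969 and 0.00247). With each library left out in turn, Igfbp7 lay between 0.036 and 0.16. In those runs the number of members called was 7 or 8 and that of pathway genes 35 to 45 against 39. That of all genes was 4459 to 7245 against 5155. Over all 20 alternatives the pathway genes called ranged from 34 (no filter on low counts) to 47 (limma-voom without horse serum replicate 6). Of all genes tested in these same settings, 4648 of 29620 and 7244 of 14267 were called, so the background moved as well. Igf2 rests on 90 to 153 counts per library, which limits its precision. DESeq2 called 5318 genes and limma-voom 4975.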
